A study of Rattus norvegicus with 6 samples.

Results

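Genes of the rat major histocompatibility complex (MHC), called RT1, and of the antigen processing machinery were examined in cells grown out of amniotic fluid from control and preeclampsia-model pregnancies. The members were every row of the expression table whose symbol begins with RT1-, 37 rows, together with B2m, Tap1, Tap2, Tapbp, Psmb8, Psmb9, Psmb10, Nlrc5, Ciita and Cd74, in all 47 of 22085 genes. Of the RT1 rows, 30 were taken as class I and 7, those named RT1-B or RT1-D, as class II. Fluid came from pregnant rats at embryonic day 18.5, and cultured cells were sequenced at passage 4, as 3 control and 3 preeclampsia libraries holding 48402185 to 59193961 counts each. Values below follow the order of libraries 1, 2 and 3 of each group. Both groups share the tissue, the culture medium with fetal bovine serum and the label mesenchymal stem cells. The means of inducing preeclampsia, the strain and age of the rats and the number of animals or fetuses behind a library are not stated in the labels. The p-values therefore measure the spread between these libraries, which may be partly technical.

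MHC class I molecules consist of a polymorphic heavy chain and the light chain beta-2 microglobulin, and they carry peptides from the cell's own proteins to the surface, where CD8 T cells and natural killer cells read them. The peptides are cut by the proteasome, whose catalytic subunits are exchanged for immunoproteasome subunits under interferon, and are pumped into the endoplasmic reticulum by the TAP transporter. Class II molecules present peptides taken up from outside and are made mainly by macrophages, dendritic cells and B cells, under the transactivator CIITA, while NLRC5 has the corresponding role for class I. Fetal and stromal cells are known for low class I and near-absent class II expression, which rises with interferon gamma.

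Of the members, 42 lay on chromosome 20, the 37 RT1 rows and Tap1, Tap2, Tapbp, Psmb8 and Psmb9, between bases 978940 and 4966191 in the table's coordinates. The 13 RT1-CE rows, a cluster of class I genes, spanned bases 3257752 to 3559487, and the class II rows spanned 4513464 to 4710432. The other class I rows lay outside the RT1-CE span. Some rows overlap on the same strand, RT1-CE5 and RT1-CE4 by 47968 bases and RT1-A2 and RT1-A1 by 4875 bases, and RT1-CE7 lies inside both RT1-CE4 and RT1-CE5. Tap1 and Psmb9 point away from each other with 409 bases between them. Class I genes are close copies, so reads may be placed on the wrong row, and the strain's own alleles may differ from the reference. How much this moved any value was not tested, and the levels of single RT1 rows are uncertain for that reason.

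The promoters were searched for 6 short motifs in fixed letters. Sequences of 250 bases before to 50 bases after the gene start were matched for 41 of the 47 members in RefSeq's GRCr8 annotation, those not matched being RT1-CE7, RT1-CE14, RT1-M2, RT1-DMb, Nlrc5 and Ciita. Capitals mark any of 6 motifs found on either strand: GAAANNGAA, the core of the interferon-stimulated response element, TTCNNNGAA, the gamma-activated site, CCAAT, the Y box of MHC promoters, TGACG, the core of the cyclic AMP response element, GGGATTCCC, a kappa B site of class I promoters, and TAGCAAC, the core of the class II X box. No 2 matches overlapped in the sequences printed. Shown first are RT1-CE16, the highest and a very uneven class I row, and RT1-CE13, which had counts in the preeclampsia libraries alone, with RT1-CE15, which lies between them. Their windows are RT1-CE16 (chr20:3265394-3265693, minus strand), RT1-CE15 (chr20:3283721-3284020, minus strand) and RT1-CE13 (chr20:3322750-3323049, minus strand), with the classical class I gene RT1-A2 (chr20:4872621-4872920, plus strand) for comparison.
RT1-CE16: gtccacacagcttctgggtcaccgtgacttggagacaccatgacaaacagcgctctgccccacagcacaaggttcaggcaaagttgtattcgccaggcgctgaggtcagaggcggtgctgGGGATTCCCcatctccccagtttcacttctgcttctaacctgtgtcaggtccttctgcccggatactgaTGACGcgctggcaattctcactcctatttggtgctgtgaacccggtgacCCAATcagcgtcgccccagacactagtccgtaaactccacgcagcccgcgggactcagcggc
RT1-CE15: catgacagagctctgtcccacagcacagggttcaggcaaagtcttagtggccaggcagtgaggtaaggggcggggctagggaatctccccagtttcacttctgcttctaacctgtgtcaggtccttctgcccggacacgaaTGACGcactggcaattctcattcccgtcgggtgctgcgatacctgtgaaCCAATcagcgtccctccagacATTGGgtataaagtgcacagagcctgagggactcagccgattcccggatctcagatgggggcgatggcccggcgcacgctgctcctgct
RT1-CE13: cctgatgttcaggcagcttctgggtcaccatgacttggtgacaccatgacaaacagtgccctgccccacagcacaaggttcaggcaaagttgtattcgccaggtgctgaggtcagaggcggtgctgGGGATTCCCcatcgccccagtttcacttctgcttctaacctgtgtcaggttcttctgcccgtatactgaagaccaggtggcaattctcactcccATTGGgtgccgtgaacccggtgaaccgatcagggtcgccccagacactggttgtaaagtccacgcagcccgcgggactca
RT1-A2: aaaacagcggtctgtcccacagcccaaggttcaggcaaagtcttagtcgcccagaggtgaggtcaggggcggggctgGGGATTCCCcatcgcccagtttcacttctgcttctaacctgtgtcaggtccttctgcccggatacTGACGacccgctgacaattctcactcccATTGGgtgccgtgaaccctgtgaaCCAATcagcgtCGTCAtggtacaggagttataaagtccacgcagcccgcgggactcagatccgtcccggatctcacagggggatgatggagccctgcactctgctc

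The light chain gene B2m (chr3:129549080-129549379, plus strand), the divergent pair Tap1 (chr20:4668494-4668793, minus strand) and Psmb9 (chr20:4668750-4669049, plus strand), whose windows share 44 bases, and the class II gene RT1-Da (chr20:4515165-4515464, plus strand) stand for the other roles.
B2m: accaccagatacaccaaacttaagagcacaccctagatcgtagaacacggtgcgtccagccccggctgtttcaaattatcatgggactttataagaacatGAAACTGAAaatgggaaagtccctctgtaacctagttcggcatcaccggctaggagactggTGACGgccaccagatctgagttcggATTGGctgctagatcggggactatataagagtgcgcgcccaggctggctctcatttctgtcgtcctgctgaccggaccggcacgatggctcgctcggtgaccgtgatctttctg
Tap1: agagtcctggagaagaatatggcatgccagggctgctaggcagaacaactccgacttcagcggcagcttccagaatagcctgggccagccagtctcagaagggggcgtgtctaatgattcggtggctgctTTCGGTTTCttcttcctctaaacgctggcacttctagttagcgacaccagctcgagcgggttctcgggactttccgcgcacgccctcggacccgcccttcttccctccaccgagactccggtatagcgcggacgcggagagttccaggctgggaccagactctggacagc
Psmb9: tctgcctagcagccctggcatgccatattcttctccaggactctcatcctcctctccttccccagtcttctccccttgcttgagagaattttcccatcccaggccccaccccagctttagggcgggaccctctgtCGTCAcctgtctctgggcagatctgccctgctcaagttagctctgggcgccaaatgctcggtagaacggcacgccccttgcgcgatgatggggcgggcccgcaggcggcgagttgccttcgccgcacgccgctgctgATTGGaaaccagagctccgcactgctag
RT1-Da: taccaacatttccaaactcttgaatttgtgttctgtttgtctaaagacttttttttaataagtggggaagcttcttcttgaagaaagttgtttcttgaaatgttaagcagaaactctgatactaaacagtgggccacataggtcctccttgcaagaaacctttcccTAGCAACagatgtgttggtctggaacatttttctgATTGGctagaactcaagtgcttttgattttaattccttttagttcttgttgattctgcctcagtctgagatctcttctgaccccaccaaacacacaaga

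The kappa B letters were found in 8 of 27 class I promoters (RT1-A1, RT1-A2, RT1-A3, RT1-CE4, RT1-CE10, RT1-CE11, RT1-CE13 and RT1-CE16), in 0 of 6 class II promoters and in 0.35% of 27457 promoters of the same length. The letters GAAANNGAA of the interferon element were found in 6 of 8 processing and regulator promoters (B2m, Psmb8, Psmb10, Tap1, Tap2 and Tapbp). They were found in 3 of 27 class I and 0 of 6 class II promoters, and in 9.50% of all. Only this spelling was searched. Every class I sequence printed above holds the similar letters agtttcacttct, which it cannot match. A promoter without a match may therefore still hold the element in other letters. All 6 class II promoters held CCAAT, as did 18 of the 27 class I promoters and 37.7% of all. The X box core was found in 3 class II promoters, RT1-Da, RT1-Db1 and RT1-DOb, in RT1-CE2, Tap2 and Cd74, and in 3.54% of all. The cyclic AMP element core was found in 8 class I promoters and 22% of all, and the gamma-activated site in 1 class I promoter, 1 processing gene promoter and 8.68% of all. Among 11 RT1-CE promoters, pairs were 49.7% to 88.2% identical in a global alignment, with a median of 56.9%, and the most alike pair was RT1-CE16 and RT1-CE13. These matches describe letters, not bound sites.

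Across the comparison of preeclampsia with control, edgeR's quasi-likelihood test called 0% of 15776 tested genes at an adjusted p of 0.05, and of the members it called 0 of 37 tested. The other 10 members did not pass the filter on low counts. They were 6 class I rows and 4 class II rows, and none of them exceeded 0.37 FPKM (read fragments relative to transcript length and to the size of the library) in any library. At an unadjusted p under 0.05, 1 member was higher and 0 were lower in the preeclampsia group, against 4.13% and 5.06% of all tested genes. DESeq2 called the same single member, RT1-CE13, against 1.71% of the genes to which it gave an adjusted p. The groups did not overlap in 6 of the 37 tested members, all higher in preeclampsia, or 16.2%, against 14.5% of all tested genes (6.15% higher and 8.32% lower). The count was planned in either direction, and there the share was near the background. Counted as higher alone it was above it, 16.2% against 6.15%. That count was not part of the plan, and its class I rows may share reads. Class I gave 5 of these members among 24 tested (20.8%), and the difference from the background was not tested.

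The directions were less even. Of 24 tested class I genes 23 had a higher fitted level in the preeclampsia group, with a median log2 fold change of 0.55, while 51.7% of all tested genes were higher, with a median of 0.01. Of 10 processing and regulator genes 8 were higher (median 0.18), and of 3 tested class II genes 1 was higher (median -0.10). The class I rows lie in clusters of close copies and may share reads, so they cannot be taken as independent, and the difference between classes was not tested. Among the 12 class I genes with a mean of at least 1 FPKM all 12 were higher, by 0.18 to 1.57 on the log2 scale (median 0.44). With no filter, 26 of 30 class I rows were higher. Without preeclampsia library 2 the count was 18 of 24 and without control library 1 it was 19 of 24.

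**Figure D1:**
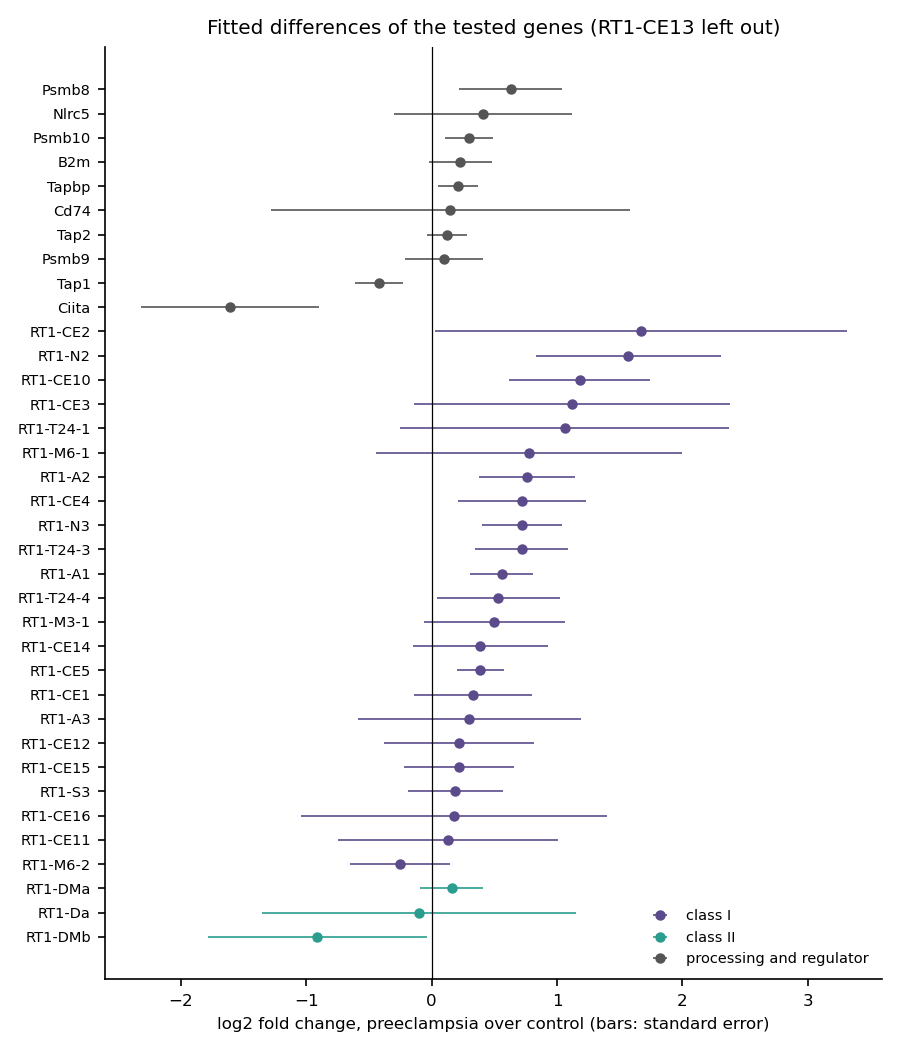
Fitted log2 fold change of preeclampsia over control (horizontal axis) with its standard error for the tested members, grouped by class; RT1-CE13 is left out because it had no count in the control libraries. All class I points but that of RT1-M6-2 lie right of 0, class II and processing genes lie on both sides, and no gene was called.

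B2m, the light chain shared by all class I molecules, was the highest member. It stood at 233.80, 230.39 and 137.75 FPKM in the control libraries and at 206.75, 224.92 and 265.32 FPKM in the preeclampsia libraries. The groups overlapped, and control library 3 lay below the other 5. The group means were 201 ± 54.5 and 232 ± 30.0 FPKM (SD, n = 3 each), a log2 fold change of 0.23 (SE 0.25, adjusted p = 0.848 by edgeR).

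RT1-CE16, a heavy chain gene of the RT1-CE cluster, was the highest class I row and the most uneven member among those with counts in every library. It stood at 0.85, 77.17 and 42.18 FPKM in the control libraries and at 46.08, 66.33 and 19.02 FPKM in the preeclampsia libraries, a range of 90.8 times. Control library 1 was low, with a count of 71 where the other libraries had 1540 to 6671. The groups overlapped, with a log2 fold change of 0.18 (SE 1.22, adjusted p = 0.976), and its fitted change was -0.39 without control library 1, -0.29 without preeclampsia library 2 and 1.09 without control library 2.

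Some other class I rows were also low in control library 1, but not all. Of 24 tested class I genes, control library 1 was lowest in 10 and highest in 3, RT1-S3 among the latter. Control library 2 was lowest in 8. RT1-A3 stood at 0.27, 3.86 and 1.54 FPKM in the control libraries and at 2.33, 3.52 and 0.92 in the preeclampsia libraries. RT1-CE11 stood at 0.12, 1.84 and 0.77 FPKM and at 0.90, 1.44 and 0.54. RT1-CE15 stood at 1.66, 4.96 and 2.85 FPKM and at 3.18, 4.84 and 2.70, and RT1-CE12 at 0.47, 1.75 and 1.02 and at 0.87, 2.04 and 0.74. In all 4 the lowest value was that of control library 1, preeclampsia library 2 or control library 2 was highest, and the groups overlapped. The adjusted p was 0.918 to 0.976 for these genes. Without control library 1 or without preeclampsia library 2 the fitted change turned negative for RT1-A3 (-0.21 in both), RT1-CE15 (-0.071 and -0.094) and RT1-CE12 (-0.13 and -0.41). For RT1-A3 it was 1.36 without control library 2. RT1-CE11, which has a mean of 0.935 FPKM, is named because it stood apart in the count that follows, after its values were seen.

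Among 12686 tested genes that reached 1 FPKM in some library, 46 (0.363%) were at least 4 times lower in control library 1 than in each of the other 5 libraries, and 2 of 28 such members were, RT1-CE11 and RT1-CE16. Control library 2 stood so for RT1-N2 (0.292% of all genes) and control library 3 for Cd74 (0.607%). No member stood so in a preeclampsia library (0.260% to 0.355% of all genes). None was at least 4 times higher in 1 library than in the other 5.

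The classical class I genes RT1-A1 and RT1-A2, which present peptides to CD8 T cells, had higher means in the preeclampsia group. RT1-A1 stood at 1.96, 3.32 and 3.35 FPKM in the control libraries and at 4.03, 4.82 and 3.62 in the preeclampsia libraries. Its groups did not overlap, by a margin of 3.35 against 3.62 FPKM, with a log2 fold change of 0.56 (SE 0.25, adjusted p = 0.569). RT1-A2 stood at 6.65, 4.45 and 4.25 FPKM and at 4.66, 9.97 and 10.94. Here preeclampsia library 1 lay within the control range and the other 2 preeclampsia libraries above it (log2 fold change 0.76, SE 0.38, adjusted p = 0.625).

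RT1-CE13 was the only member with an unadjusted p under 0.05. It had a count of 0 in all 3 control libraries and of 55, 69 and 25 in the preeclampsia libraries, which is 0.23, 0.25 and 0.11 FPKM. Against a floor of 3 counts in a control library, 0.0605 CPM (counts scaled to library size), its preeclampsia mean of 0.914 CPM was at least 15.1-fold higher, a floor that covers counting error only. The unadjusted p was 0.000727 and the adjusted p 0.313 by edgeR, and DESeq2's adjusted p was 1.81e-05. Misplaced reads from other RT1 rows were not tested.

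In 3 other RT1 rows the groups did not overlap either. RT1-N2, a nonclassical class I gene, stood at 1.08, 0.18 and 1.75 FPKM in the control libraries and at 2.45, 2.32 and 4.07 in the preeclampsia libraries (log2 fold change 1.57, SE 0.74, adjusted p = 0.604; 2.19 without control library 3). RT1-CE10 stood at 1.91, 0.68 and 0.56 FPKM and at 1.99, 2.82 and 2.35 (1.18, SE 0.56, adjusted p = 0.606; 1.99 without control library 1). Both were not called, and in RT1-CE10 the margin was 1.91 against 1.99 FPKM. RT1-CE3 stood at 0.47, 0 and 0.53 FPKM and at 0.64, 0.62 and 0.86, its zero lying in control library 2.

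The remaining class I rows with a mean of at least 1 FPKM overlapped between the groups. RT1-S3, a nonclassical gene and the rat counterpart of mouse H2-T23 (Qa-1), was the second highest class I row, at 15.59, 9.49 and 5.77 FPKM in the control libraries and at 13.73, 10.16 and 11.42 in the preeclampsia libraries. Its log2 fold change of 0.19 (SE 0.38, adjusted p = 0.915) became -0.099 without control library 3. RT1-CE5 was the steadiest of them, at 6.55, 8.34 and 6.60 FPKM and at 7.42, 10.82 and 9.36, with a log2 fold change of 0.39 (SE 0.19, adjusted p = 0.623). RT1-M3-1, whose mouse counterpart presents formylated bacterial peptides, stood at 2.78, 1.74 and 5.71 FPKM and at 2.29, 5.96 and 5.81. RT1-N3 stood at 0.87, 1.06 and 0.72 FPKM and at 2.01, 0.85 and 1.5 (0.72, SE 0.32, adjusted p = 0.576). The 11 tested members not named by the rule had means of 0.05 to 0.935 FPKM and fitted log2 fold changes of -0.25 to 1.67, the latter for RT1-CE2, which had no count in 2 control libraries.

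**Figure D2:**
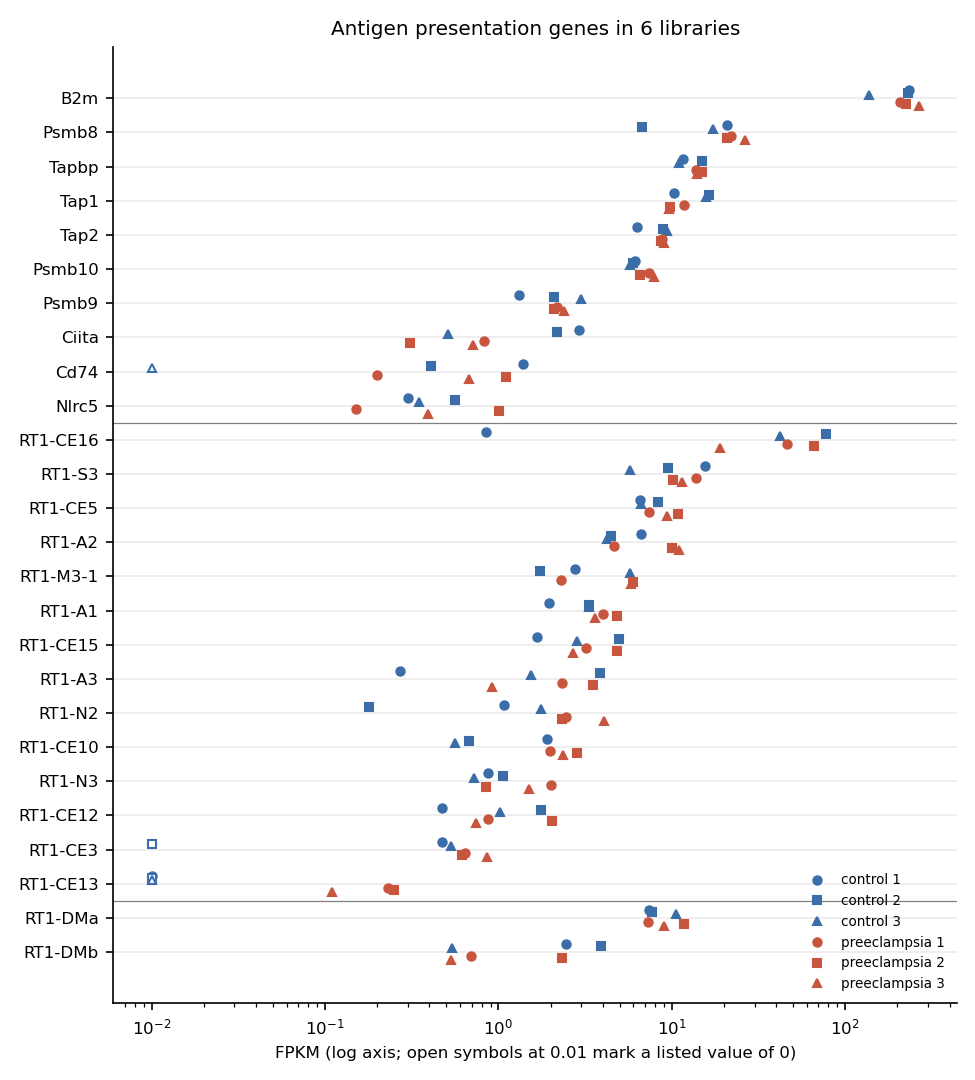
FPKM on a log axis for the named members, one symbol per library (blue control, red preeclampsia; open symbols mark a listed value of 0), processing and regulator genes at the top, then class I and class II. B2m lies at 137.75 to 265.32 FPKM, RT1-CE16 is low in control library 1 alone, and most rows overlap between the groups.

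Summed over the 30 class I rows, FPKM came to 45.5, 122 and 80.5 in the control libraries and to 100, 132 and 78.9 in the preeclampsia libraries, so the groups overlapped. RT1-CE16 made up 1.87%, 63.1% and 52.4% of that sum in the control libraries and 46.0%, 50.4% and 24.1% in the preeclampsia libraries. Left out after its values were seen, the other 29 rows summed to 44.7, 45.1 and 38.3 FPKM in the control libraries and to 54.1, 65.3 and 59.9 in the preeclampsia libraries. Those groups did not overlap, at 42.7 ± 3.82 and 59.8 ± 5.57 FPKM (SD, n = 3 each), and no p is given for a sum over chosen rows. By family, the RT1-A rows summed to 8.88, 11.6 and 9.14 FPKM and to 11.0, 18.3 and 15.5, and the RT1-N, -S, -M, -O and -T24 rows to 22.8, 14.0 and 15.7 and to 25.3, 20.6 and 24.5. B2m FPKM was 5.14 times the class I sum in control library 1, 3.36 times in preeclampsia library 3, and 1.71 to 2.06 times in the other 4.

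**Figure D3:**
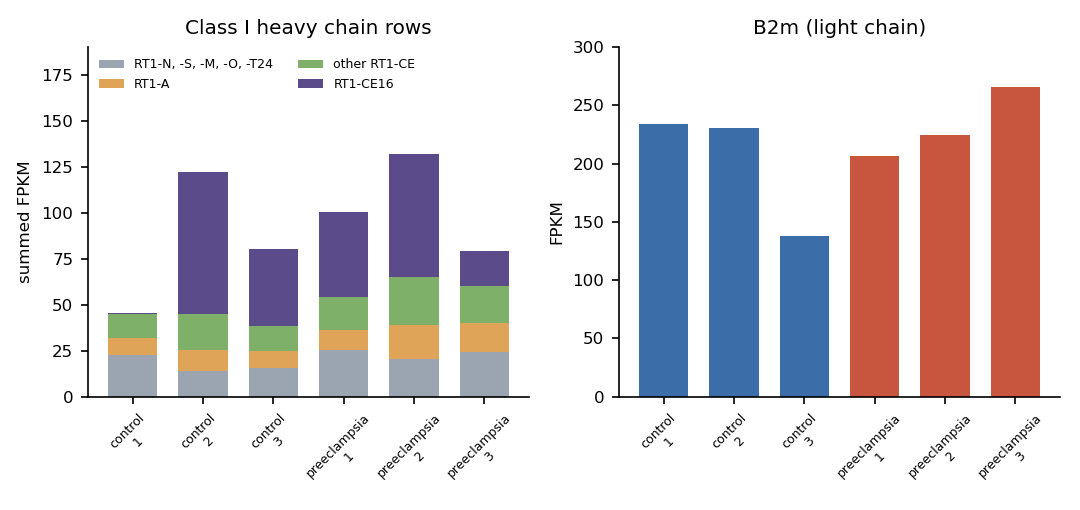
Left, summed FPKM of the class I rows per library, stacked by family; right, FPKM of B2m per library (blue control, red preeclampsia). RT1-CE16 makes up 1.87% of the class I sum in control library 1 and 24.1% to 63.1% in the other 5, while B2m does not follow that drop.

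The immunoproteasome subunits were led by Psmb8, which was at 20.85, 6.77 and 17.24 FPKM in the control libraries and at 22.04, 20.74 and 26.26 in the preeclampsia libraries. Control library 2 was low and control library 1 lay just above the lowest preeclampsia value, so the groups overlapped (log2 fold change 0.63, SE 0.41, adjusted p = 0.718). Psmb10 was at 6.16, 6.01 and 5.73 FPKM and at 7.36, 6.53 and 7.89. Its groups did not overlap, with means of 5.97 ± 0.218 and 7.26 ± 0.685 FPKM (SD, n = 3 each) and a log2 fold change of 0.30 (SE 0.19, adjusted p = 0.706). Psmb9, the third subunit, was the lowest at 1.32, 2.08 and 2.98 FPKM and at 2.18, 2.1 and 2.39, all preeclampsia values lying within the control range (0.10, SE 0.31, adjusted p = 0.950), and without control library 1 the fitted change was -0.13.

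Tap1, one chain of the peptide transporter, was the only processing gene for class I with a lower mean in the preeclampsia group. It was at 10.26, 16.38 and 15.74 FPKM in the control libraries and at 11.79, 9.72 and 9.58 in the preeclampsia libraries. Control library 1 lay among the preeclampsia values, and the log2 fold change was -0.42 (SE 0.19, adjusted p = 0.569). The divergent neighbour Psmb9, printed beside it above, did not share the direction, and Tap1 FPKM was 7.77, 7.87 and 5.28 times Psmb9 FPKM in the control libraries and 5.41, 4.63 and 4.01 times in the preeclampsia libraries. Tap2, the other chain, was at 6.31, 8.93 and 9.42 FPKM and at 8.73, 8.63 and 9.0 (0.12, SE 0.16, adjusted p = 0.867; -0.0084 without control library 1). Tapbp, encoding tapasin, which bridges TAP and the empty heavy chain, was at 11.61, 14.99 and 11.04 FPKM and at 13.82, 14.96 and 13.94 (0.21, SE 0.16, adjusted p = 0.768).

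Transactivator genes were low. Nlrc5, which drives class I and B2m transcription, was at 0.30, 0.56 and 0.35 FPKM in the control libraries and at 0.15, 1.01 and 0.39 in the preeclampsia libraries, the latter spanning the former (0.41, SE 0.71, adjusted p = 0.903; -0.53 without preeclampsia library 2). Ciita, the master regulator of class II, was at 2.93, 2.18 and 0.51 FPKM and at 0.83, 0.31 and 0.71. Control libraries 1 and 2 lay above the other 4, which held between 0.31 and 0.83 FPKM, and the log2 fold change was -1.61 (SE 0.71, adjusted p = 0.575).

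Class II genes were at or near 0 apart from the DM pair. RT1-Ba, RT1-Bb, RT1-Da and RT1-Db1, the alpha and beta chains that present peptide, summed to 0.27, 0.20 and 0.01 FPKM in the control libraries and to 0.02, 0.22 and 0.11 in the preeclampsia libraries. Of these 4 chains only RT1-Da passed the filter (log2 fold change -0.10, SE 1.25). RT1-DOb, a chain of the DO modulator of class II loading, did not exceed 0.08 FPKM. RT1-DMa, a chain of the chaperone that loads class II molecules, was by far the highest class II row, at 7.38, 7.67 and 10.56 FPKM and at 7.24, 11.69 and 9.01 (0.16, SE 0.25, adjusted p = 0.894; -0.063 without preeclampsia library 2). Its partner RT1-DMb was at 2.45, 3.88 and 0.54 FPKM and at 0.69, 2.34 and 0.53 (-0.91, SE 0.87, adjusted p = 0.822; -1.89 without preeclampsia library 2). Cd74, the invariant chain that occupies the class II groove, was at 1.39, 0.41 and 0 FPKM and at 0.20, 1.11 and 0.68 (0.15, SE 1.43, adjusted p = 0.981). Its fitted change was 1.77 without control library 1, -0.082 without control library 2, -0.43 without control library 3 and -0.47 without preeclampsia library 2.

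Macrophages carry class II genes, and their markers differed between libraries within both groups. All 20 macrophage and leukocyte markers were tested, all 20 had a higher fitted level in the preeclampsia group (median log2 fold change 0.96) and 0 were called. Their summed FPKM was 188, 164 and 36.9 in the control libraries and 38.4, 522 and 263 in the preeclampsia libraries. Libraries control 3 and preeclampsia 1, lowest for these markers, were also the 2 lowest for Cd74 and for the 4 presenting class II chains, and were low for RT1-DMb together with preeclampsia library 3. In bulk RNA fewer cells of a type and less RNA per cell cannot be told apart. Other values did not keep that order. Cd74 and the 4 chains were highest in control library 1 (1.39 and 0.27 FPKM), not in preeclampsia library 2 (1.11 and 0.22). RT1-DMa stood at 10.56 FPKM in control library 3, below only preeclampsia library 2 (11.69), and was lowest in preeclampsia library 1 (7.24). Ciita was lowest in preeclampsia library 2, where the markers were highest. For class I without RT1-CE16, the 2 libraries with few such markers stood at 38.3 FPKM (control 3) and 54.1 FPKM (preeclampsia 1). In that sum preeclampsia library 1 lay above all 3 control libraries. RT1-CE16 was left out after its values were seen. With it, preeclampsia library 1 (100 FPKM) lay below control library 2 (122 FPKM). These values come from 1 library of each group with few markers. Whether macrophage content bears on the class I values was not tested.

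**Figure D4:**
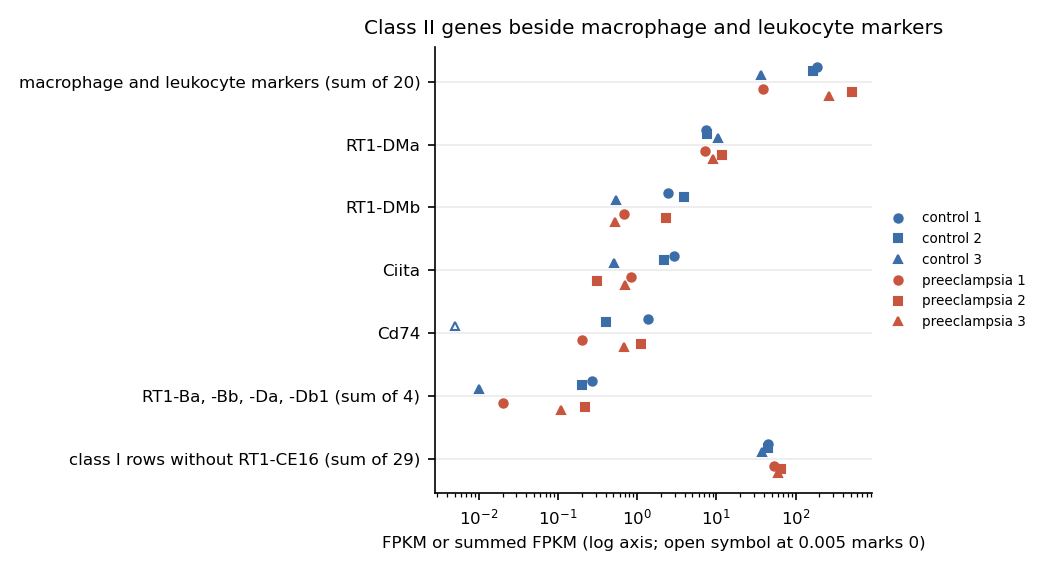
FPKM or summed FPKM on a log axis, one symbol per library (blue control, red preeclampsia; the open symbol marks 0), for macrophage and leukocyte markers, class II genes and the class I sum without RT1-CE16. Control library 3 and preeclampsia library 1 are lowest for the markers, for Cd74 and for the presenting class II chains. RT1-DMa is high in control library 3. Only the class I sum separates the groups, at 38.3 to 45.1 against 54.1 to 65.3 FPKM. RT1-CE16 was left out of that sum after its values were seen. With that row the groups overlap, at 45.5 to 122 against 78.9 to 132 FPKM.

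Dendritic and lymphoid markers, 9 in the table, ranked the 6 libraries in the same order as the macrophage markers, at summed levels of 14.1, 11.3 and 3.35 FPKM in the control libraries and 3.88, 33.5 and 20.4 in the preeclampsia libraries. The 6 epithelial markers summed to 3.93, 55.0 and 12.8 FPKM in the control libraries and to 0.50 to 1.58 in the preeclampsia libraries, and the 6 endothelial markers to 0.56 to 3.74 FPKM in all. The 9 mesenchymal markers summed to 5790 to 6610 and to 6430 to 9290 FPKM. This was the largest sum of the marker lists in every library. Sums over lists of different genes do not test the label mesenchymal stem cells. Col1a1, Cxcl12 and Col1a2 led the mesenchymal sum, with means of 2860, 1720 and 1180 FPKM, while Nt5e and Eng ranged over 17.3 and 12.0 times. No marker was called by edgeR. DESeq2 called Pdgfra higher and Krt8 and Krt18 lower in preeclampsia (adjusted p = 0.00013, 0.00625 and 0.0237), against 1.71% of all genes given an adjusted p. Krt8 overlapped between the groups, at 1.12, 37.4 and 8.41 FPKM in the control libraries and at 0.40, 1.22 and 1.35 in the preeclampsia libraries. Pdgfra and Krt18 did not overlap. The part of any of these cell types in the class I values was not tested.

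Beyond the members, lists of genes that work with them were read from the same test, each beside a median of 0.01 over all tested genes, and edgeR called no gene of any of these lists. Of 14 tested genes of class I loading, the proteasome and its activators, 8 were higher and 6 lower (median log2 fold change 0.05). The chaperones led this list, with Calr at 838.37 to 1418.61 FPKM over all libraries, Hspa5 at 348.05 to 535.83 and Pdia3 at 337.69 to 444.08, each overlapping between the groups. Psme1, a subunit of the interferon-inducible proteasome activator PA28, was at 16.32, 16.32 and 20.90 FPKM in the control libraries and at 27.67, 24.64 and 29.39 in the preeclampsia libraries. Its groups did not overlap (log2 fold change 0.63, SE 0.14, unadjusted p = 0.00304, adjusted p = 0.380 by edgeR), and DESeq2 called it (adjusted p = 0.0331).

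Of 27 transcription and signalling genes of the pathway, 19 were higher and 8 lower (median 0.21). Jak1, a kinase of interferon receptors, was at 75.05 to 104.55 FPKM in the control libraries and at 104.37 to 115.55 in the preeclampsia libraries, overlapping by a narrow margin. The NF-kB subunit gene Rela was at 82.94 to 106.36 FPKM and the interferon receptor gene Ifnar2 at 44.64 to 68.34 FPKM over all libraries. Relb, a subunit of the noncanonical NF-kB pathway, was at 19.47, 21.83 and 19.02 FPKM in the control libraries and at 12.29, 12.11 and 8.64 in the preeclampsia libraries. Here the groups did not overlap and the log2 fold change was -0.85 (SE 0.19, unadjusted p = 0.00346, adjusted p = 0.395 by edgeR, 0.0202 by DESeq2). Socs3, a feedback inhibitor of cytokine signalling, was at 6.73, 7.26 and 22.14 FPKM and at 30.26, 27.77 and 24.74 (1.23, SE 0.46, adjusted p = 0.499; 1.98 without control library 3).

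Of 26 tested interferon-stimulated genes 15 were higher and 11 lower (median 0.08), near the even split of all genes. The highest was Ifi27, at 241.59, 232.85 and 233.61 FPKM in the control libraries and at 359.13, 366.04 and 353.39 in the preeclampsia libraries. The spread within each group was small beside the gap between them (log2 fold change 0.63, SE 0.10, adjusted p = 0.313 by edgeR, 0.000579 by DESeq2). Bst2, encoding the virus tether tetherin, was at 4.94, 3.60 and 0.78 FPKM and at 16.86, 11.61 and 23.74 (2.48, SE 0.68, adjusted p = 0.458 by edgeR, 0.00992 by DESeq2). Ifitm3, a restriction factor gene, was at 54.89, 35.90 and 73.26 FPKM and at 86.12, 114.17 and 98.09, without overlap (0.89, SE 0.28, adjusted p = 0.470), while its relative Ifitm1 overlapped, at 17.44 to 38.45 and 23.77 to 83.07 FPKM.

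In the class II loading and endosomal proteolysis list 8 of 11 tested genes were higher (median 0.27). The lysosomal proteases Ctsb, Ctsl and Lgmn were the highest, and each was highest in preeclampsia library 2, at 1837.86, 1245.12 and 1023.99 FPKM, the library with the most macrophage marker signal. Ctsl had a log2 fold change of 0.75 (SE 0.28, adjusted p = 0.496 by edgeR), and Lgmn one of 0.79 that was 0.18 without preeclampsia library 2. Among class I-like genes outside the complex 3 of 5 tested were higher (median 0.35). Fcgrt, the neonatal Fc receptor that pairs with B2m and carries maternal antibody, was at 53.41, 59.48 and 67.55 FPKM in the control libraries and at 47.19, 89.21 and 88.85 in the preeclampsia libraries (0.35, SE 0.27, adjusted p = 0.773). Procr was at 4.94 to 17.20 FPKM and Cd1d1 at 1.44 to 4.36 FPKM over all libraries, both overlapping between the groups.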

How the data were processed

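Messenger RNA of 6 libraries was captured on oligo(dT) beads, primed at random and tagged with molecular identifiers, per the labels' protocols. Per the submitters' processing notes, the tools were HISAT2 2.2.1, StringTie 2.1.6, cutadapt 1.9 and FastQC. Settings and build were not given in the sources used here. Chromosome sequence names match mRatBN7.2. Per the file headers, the authors deposited a count and an FPKM value for each gene in each library. Between 35.1% and 38.0% of counts from 1 to 15 were multiples of 4, for a reason not tested. No 2 libraries were duplicates (smallest chi-square per degree of freedom 130).

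edgeR 4.0.16 (R 4.3.3) was run on the counts of 15776 genes passing filterByExpr, with TMM scaling, a quasi-likelihood F test on group alone and Benjamini-Hochberg adjustment over those genes. The standard errors (SE) given were derived from that test, as the absolute log2 fold change over the square root of F. Groups that do not overlap were read from FPKM. Alternatives were DESeq2 1.42.0, limma 3.58.1 on log2(FPKM + 1) and log2(FPKM + 0.1), other scalings and filters, a replicate block, and each library left out. Fits were tested on simulated data. The members and lists were chosen with earlier results of these data known, and the X box motif was added after promoters had been viewed. Named genes were the non-RT1 members, RT1 rows with a mean of at least 1 FPKM, an unadjusted p under 0.05 or groups without overlap, and from each pathway list those with such a p and the 3 highest. Promoters were aligned with Biopython 1.88.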

Additional observations from a re-analysis of the deposited data

How the results depend on the processing

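Of 667 refitted values of the 45 tested named genes, 642 kept their direction and side of the threshold, 20 changed sign and 5 passed the threshold, those being RT1-CE13, Psme1, Relb, Ifi27 and Bst2 in DESeq2. All sign changes came from leaving out 1 library. With 1 library left out the log2 fold changes of the 13 genes concerned ran over these ranges: Cd74 -0.47 to 1.77, Nlrc5 -0.53 to 0.85, Psmb9 -0.13 to 0.40, RT1-A3 -0.21 to 1.36, RT1-CE12 -0.41 to 0.75, RT1-CE15 -0.094 to 0.70, RT1-CE16 -0.39 to 1.09, RT1-DMa -0.063 to 0.33, RT1-S3 -0.099 to 0.67, Tap2 -0.0084 to 0.22, Pdia3 -0.038 to 0.17, Hspa5 -0.24 to 0.035, Procr -1.06 to 0.018. Over all genes, 302 were called with DESeq2, 1 with limma on log2(FPKM + 1) without a filter, and 0 to 2 with 1 library left out; of the members DESeq2 called 1. The class I median was 0.26 with limma without a filter, where the pseudocount shrinks changes of low genes by construction, and 0.52 to 0.71 with 1 library left out. The class II median of 3 genes was -1.03 to -0.02 with 1 library left out, and 0.14 with the replicate block. With 1 library left out, 7 to 13 members (18.4% to 35.1%) had groups that did not overlap, against 21.2% to 33% of all genes, and the highest count, without control library 1, stood beside 22.9% of all genes, and 18 to 23 class I genes had higher fitted levels.

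With the replicate number as a block 0 genes were called. Whether libraries of the same number are paired is not stated in the labels. Correlations of same-numbered libraries, taken on deviations from the group means, were 0.0484, 0.041 and 0.0104. Those of other pairs ran from -0.0795 to 0.035, and not every library correlated best with its own number. With 3 libraries per group these values cannot decide whether the libraries are paired. The block changed no call. Depth limits RT1-CE13 and the class II chains, where 3 counts correspond to 0.0507 to 0.062 CPM.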
